A study of Mus musculus with 8 samples.

Results

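The genes described here encode heat shock proteins and other molecular chaperones, with their closest partners. They were chosen by symbol alone: symbols that begin with Hspa, Hspb, Hspd, Hspe, Hsph, Hsp90, Dnaj or Pdia, or with Bag or Cct and a number, and Tcp1, Hsf1 and Hsf2. This rule found 82 of the 14033 genes in the table, in 83 rows. Only Hspa14 had more than 1 row, and the row with the higher mean was used. A few of the 82 are chaperones by name only: Hspb11 encodes a protein of transport in cilia, and Hsf1 and Hsf2 encode transcription factors.

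The cells came from mouse fetal livers at stage E14.5, from matings of Flt3-Cre mice with mTmG reporter mice (FlkSwitch embryos). All 8 libraries were made from cells sorted as lineage-negative, cKit+, Sca1+ and CD150+, the surface profile of hematopoietic stem cells. The 4 GFP+ libraries hold cells in which Cre, driven by Flt3, had at some time recombined the reporter, and the 4 Tomato+ libraries hold cells in which it had not. GFP therefore records a history of Flt3-Cre activity and not current Flt3 expression. The labels do not say whether libraries came from separate embryos, litters or sorts, so the authors' p-values may reflect technical spread.

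Chaperones bind unfolded or partly folded proteins and let them reach their native shape. Hsp70 proteins work in cycles of ATP hydrolysis that J proteins (Dnaj genes) start and exchange factors such as Hsp110 and BAG proteins end. Hsp90 finishes kinases and receptors, and the barrel-shaped chaperonins CCT (cytosol) and Hsp60 with Hsp10 (mitochondria) enclose their clients. In the endoplasmic reticulum (ER), BiP (Hspa5) and protein disulfide isomerases fold secreted proteins. Protein stress induces the cytosolic set through Hsf1 and the ER set through the unfolded protein response, and blood stem cells are known to depend on tight control of protein synthesis and folding.

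Values are mean normalized counts of each fraction from the authors' deposited table, and log2 values are GFP+ over Tomato+, so that positive means higher in GFP+. Where a pair of means is given, GFP+ comes first. A gene is called where the authors' adjusted p is under 0.05. The table holds no value for a single library, so no standard deviation, overlap between libraries or depth per library can be given. The sum of all rows was 7926900 in GFP+ and 7111170 in Tomato+. Scaling both fractions to the same sum lowers every log2 value by 0.16.

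A few abundant cytosolic and mitochondrial chaperones were modestly higher in GFP+ cells. Of 17 ER genes 0 were called, against 7.49% of all rows, and the highest mean among them was 4049. The 5 genes called higher were Hspa8, Hsp90ab1, Cct8, Hspe1 and Hspa9, each 1.32-fold to 1.48-fold higher in GFP+ (the authors' deposited table). The single gene called lower was Hspa12b, an atypical Hsp70 relative, 2.03-fold lower in GFP+ (the authors' deposited table). The remaining 76 genes were not called, and of 96 genes of these families listed from textbooks 14 had no row, Hspb1 (Hsp27) among them. Of all 14268 rows 7.49% were called, 4.86% higher and 2.64% lower, so 6 calls among 82 genes (7.32%) lie at the background. At an unadjusted p under 0.05 there were 23 of the 82 genes (28.05%), against 16.2% of all rows. These shares depend on the level of expression. With a mean of at least 1000 they were 62.1% and 31.9%, and with a lower mean 9.43% and 14.0%.

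The 82 genes had a median log2 of 0.13, against 0.01 over all rows, and 56 lay above 0. With both fractions scaled to the same sum, those medians were -0.025 and -0.15, and 38 of the 82 genes lay above 0. The sign of the median of the 82 genes thus depends on the scaling, which leaves its distance from the median of all rows as it is.

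The difference followed the level of expression, in chaperone genes as in the whole table. Among 29 chaperone genes with a mean of at least 1000, 28 had a log2 above 0 and the median was 0.33. Over all 1745 rows with such a mean, 1327 lay above 0 and the median was 0.15. In this range 17.2% of chaperone genes and 16.1% of all rows were called. Among 53 chaperone genes with a lower mean, 28 lay above 0, the median was 0.04, 0 were called higher and Hspa12b was called lower. Over all 12523 rows with such a mean, 47.8% lay above 0, the median was -0.018 and 3.51% were called higher.

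Within narrower ranges of the mean, set after the values were seen, the chaperone median lay above that of all rows from 500 upward and under 50. Between 50 and 500 it lay just below. From 2500 upward a smaller share of chaperone genes than of all rows was called. Between 500 and 1000 the medians were 0.098 for 12 chaperone genes and 0.051 for all rows. Between 1000 and 2500 the medians were 0.31 for 11 chaperone genes and 0.11 for all rows. Between 2500 and 5000 all 14 chaperone genes had a log2 from 0.24 to 0.42, with a median of 0.35, against 0.21 for all rows. Of those 14 genes 2 were called (14.3%), against 20.7% of all rows in the range. From 5000 upward 2 of 4 chaperone genes were called, against 69.3% of rows. The plot of log2 against the mean shows this drift.

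**Figure D1:**
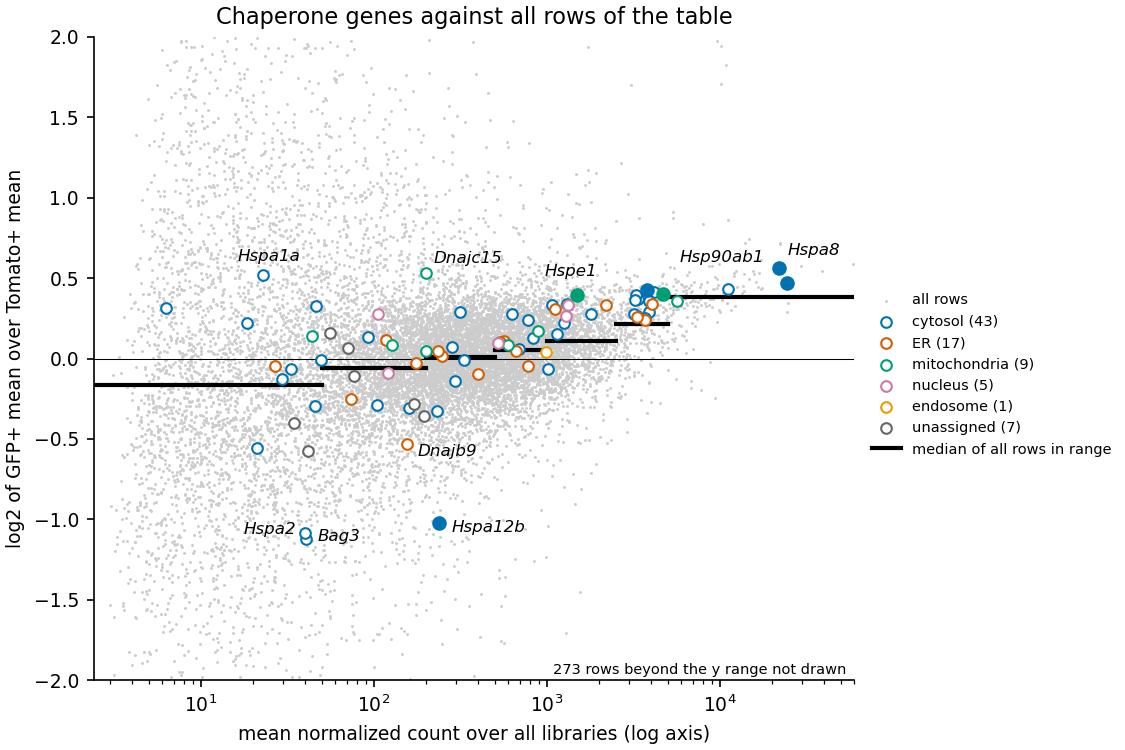
Each grey point is a row of the table and each circle a chaperone gene, coloured by compartment and filled where the adjusted p is under 0.05. The horizontal axis is the mean normalized count over all libraries on a log scale, the vertical axis the log2 of the GFP+ over the Tomato+ mean (273 rows beyond its range are not drawn), and black bars are medians of all rows per range of the mean. The bars climb from -0.17 under a mean of 50 to 0.38 from 5000 upward, and the 14 chaperone genes between 2500 and 5000 all lie above their bar at 0.21.

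The Hsp70 family held values on both sides of 0. Of its 10 genes 2 were called higher and 1 lower (30%, against 7.49% of all rows). The 2 called higher, Hspa8 and Hspa9, lie in ranges of the mean where 69.3% and 20.7% of all rows were called. Hspa8 (Hsc70), the constitutive cytosolic Hsp70, had a mean of 26444 in GFP+ against 17887 in Tomato+, 1.48-fold more (log2 0.56, adjusted p = 0.00603, the authors' deposited table). Hspa9 (mortalin), the Hsp70 of the mitochondrial matrix, had 5373 and 4072, a 1.32-fold difference (adjusted p = 0.0464, the authors' deposited table). Both were called higher, and both stayed above 0 with equal sums, at log2 values of 0.41 and 0.24.

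Hspa5 (BiP), the Hsp70 of the ER, had means of 3642 and 3044 and was not called (log2 0.26, adjusted p = 0.553, the authors' deposited table). Hspa13, a microsomal Hsp70 relative, had 240.1 in GFP+ and 232.7 in Tomato+, and Hspa14, a ribosome-associated Hsp70, 873 and 799, by the authors' deposited table. Neither was called. Hspa9, Hspa5 and Hspa8 thus had log2 values of 0.40, 0.26 and 0.56, and whether these differ from each other was not tested.

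Hspa12b moved the other way. This gene, known from endothelial cells, had a mean of 158 in GFP+ against 322 in Tomato+ (log2 -1.02, adjusted p = 0.000162, the authors' deposited table). It ranked at the 1.16th percentile of log2 among all rows with a mean between 200 and 500, and it stayed below 0 with equal sums, at -1.18. Hspa2, an Hsp70 best known from the testis, had a similar log2 of -1.12 at low means of 25.5 and 55.3, and was not called (adjusted p = 0.290, the authors' deposited table).

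Endothelial genes, many of which stem cells share, mostly differed in the same direction as Hspa12b. In a list of 18 such genes added after the values were seen, 9 were called lower and 1 higher, with a median log2 of -0.67 and summed means of 5840 in GFP+ against 8221 in Tomato+. Of the 2 genes with the highest means in this list, Egfl7 was called higher and Eng lower. Egfl7 had 1736 and 1337 (adjusted p = 0.0231), and Eng 989 and 1367 (adjusted p = 0.000458), by the authors' deposited table. The vascular receptor genes Tek and Tie1 had log2 values of -1.68 and -1.24 (the authors' deposited table). Of 14 megakaryocyte genes 11 were called lower, with sums of 2478 and 5357. Over all rows 2.64% were called lower. The lowest mean of any row in the table was 2.47, and 1 further megakaryocyte gene had no row. The part of such cells in the Hspa12b difference was not tested, and in bulk RNA fewer cells of a type and less RNA per cell cannot be told apart.

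The heat-inducible Hsp70 genes had low mean counts. Hspa1a had a mean of 26.8 in GFP+ against 18.7 in Tomato+, and Hspa1b 32.6 and 34.03, by the authors' deposited table. Their adjusted p-values were 1 and 0.889, and their log2 values of 0.52 and -0.06 have opposite signs. The coding sequences of this pair are nearly identical, and nothing says how shared reads were counted, so each value is uncertain. Per kilobase of annotated exon, the Hspa8 level was 298 times the summed level of both genes in GFP+ and 225 times in Tomato+. By these counts constitutive Hspa8 made up nearly all of this cytosolic Hsp70 trio in both fractions. Both ratios depend on how the shared reads of the pair were counted.

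The Hsp110 genes, whose products release ADP from Hsp70, were not called. Hspa4 had means of 4021 and 3369 (log2 0.25, adjusted p = 0.312), and Hsph1 1202 and 1082 (log2 0.15), by the authors' deposited table. The third, Hspa4l, had 207 in GFP+ and 259 in Tomato+ (log2 -0.32, adjusted p = 0.461, the authors' deposited table). The family thus held values on both sides of 0.

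All 3 Hsp90 genes had higher means in GFP+, and 1 was called (33.3%, against 7.49% of all rows). That gene lies in the range from 5000 upward, where 69.3% of all rows were called. Hsp90ab1, the constitutive cytosolic Hsp90, had 28625 in GFP+ against 20688 in Tomato+, 1.38-fold more (log2 0.47, adjusted p = 0.00812, the authors' deposited table). Hsp90aa1, the inducible cytosolic form, had 12903 and 9579 and narrowly missed the threshold (log2 0.43, adjusted p = 0.0630, the authors' deposited table). Hsp90b1 (Grp94), the ER form, had 4519 and 3580 (log2 0.34, adjusted p = 0.379, the authors' deposited table).

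The balance of the cytosolic pair was much the same in both fractions. Per kilobase of exon, the Hsp90ab1 level was 2.91 times that of Hsp90aa1 in GFP+ and 2.83 times in Tomato+. Hsp90ab1, Hspa8 and Hsp90aa1 together took 0.857% of all normalized counts in GFP+ and 0.677% in Tomato+. The whole set of 82 genes took 2.05% and 1.77%, so these 3 genes held a large part of the chaperone counts.

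**Figure D2:**
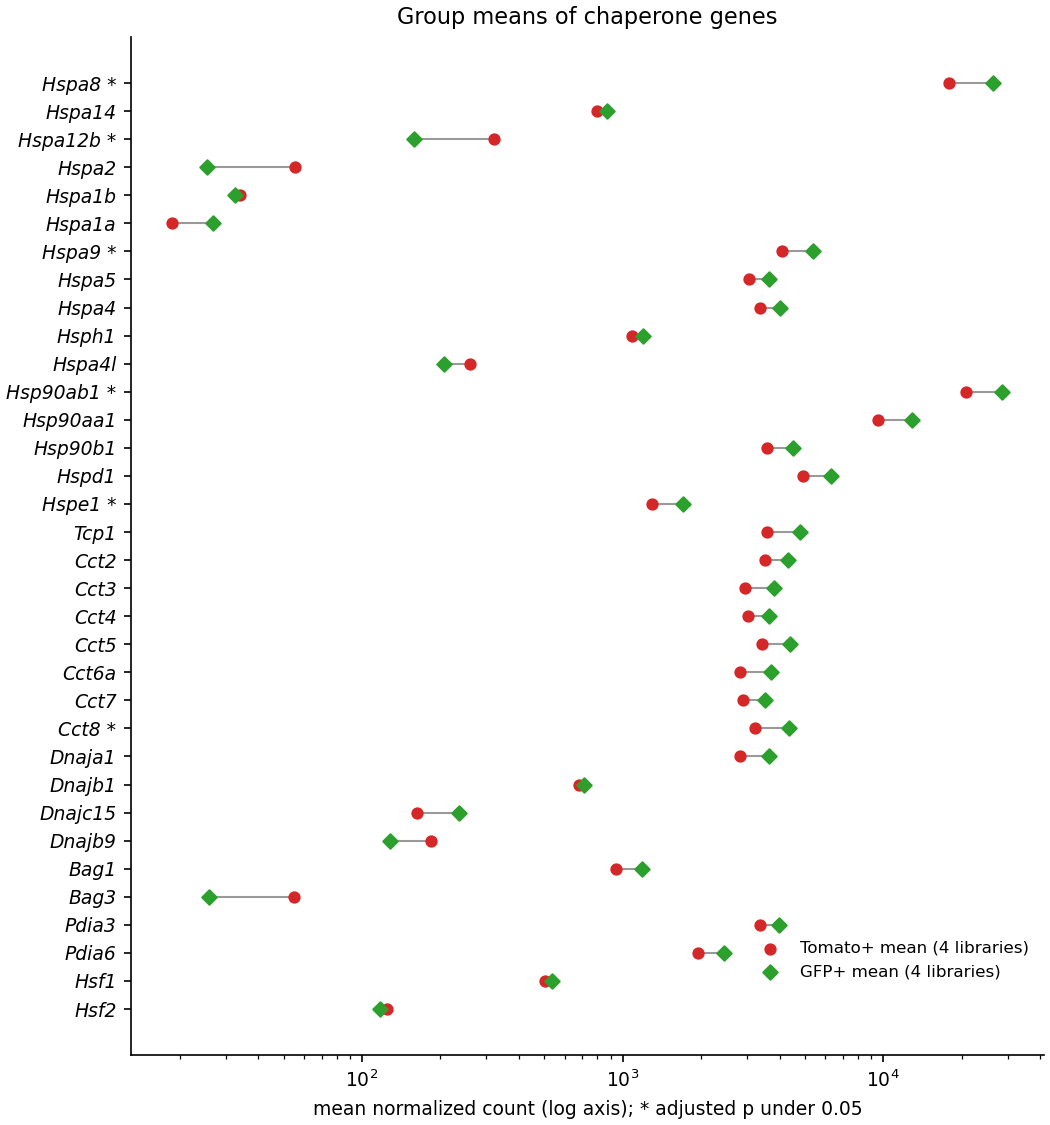
Points are the authors' mean normalized counts on a log axis for 34 chaperone genes in Tomato+ (red circles) and GFP+ (green diamonds) cells, each over 4 libraries and without error bars since values per library are not in the table. Asterisks mark the 6 genes with an adjusted p under 0.05, of which Hspa12b alone has the lower mean in GFP+.

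The CCT chaperonin, the cytosolic ring that folds actin and tubulin, showed differences of similar size in all subunits. Each of its 8 measured subunits had a higher mean in GFP+, with log2 values from 0.26 (Cct4) to 0.42 (Cct8) and a median of 0.37. The standard deviation of log2 over the 8 subunits was 0.064, against 0.25 over 40 J protein genes, whose means span a far wider range. The 6 genes of other classes with a mean between 2500 and 5000 also lay from 0.24 to 0.40, so values this close were not particular to CCT. Only Cct8 was called, with means of 4334 and 3230 (adjusted p = 0.0393, the authors' deposited table).

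Tcp1, the alpha subunit, was just outside the threshold at 4792 and 3596 (log2 0.41, adjusted p = 0.0513, the authors' deposited table). Cct6a, Cct3 and Cct5 had log2 values of 0.40, 0.37 and 0.36, and Cct2 and Cct7 0.29 and 0.28, by the authors' deposited table. None of these was called. Of the 8 subunits 6 had an unadjusted p under 0.05 (75%), against 42.0% of all rows with a mean between 2500 and 5000. All 8 also stayed above 0 with equal sums, from 0.11 to 0.27. Subunits of 1 complex in the same libraries are not independent replicates of a difference.

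Helpers of CCT lay in the same direction without a call. Of 9 listed genes of prefoldin, which hands new chains to CCT, and of related cofactors, 0 were called and every log2 lay above 0, with a median of 0.21. With equal sums 7 of 9 were above 0. The prefoldin subunit gene Pfdn2 had means of 426 and 325 (log2 0.39, adjusted p = 0.203, the authors' deposited table). H2-Ke2, the older symbol of the prefoldin gene Pfdn6, had 545 and 439 (log2 0.31, adjusted p = 0.289, the authors' deposited table).

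The mitochondrial chaperonin pair was higher in GFP+, with 1 of 2 genes called, against 7.49% of all rows. Hspe1 (Hsp10), the lid of the barrel, had means of 1712 and 1301, a 1.32-fold difference (log2 0.40, adjusted p = 0.0432, the authors' deposited table). Hspd1 (Hsp60), the barrel itself, had 6329 and 4938 (log2 0.36, adjusted p = 0.188, the authors' deposited table). Per kilobase of exon the Hspd1 level was 2.06 times that of Hspe1 in GFP+ and 2.12 times in Tomato+, so the pair kept nearly the same proportion.

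Hspd1 and Hspe1 lie head to head, and their promoter windows in RefSeq's GRCm38.p6 table, each 250 bases before to 50 after a start site, share 285 of 300 bases. The window holds a heat shock element, the binding site of Hsf1, searched as GAA, TTC and GAA (or TTC, GAA and TTC) in a row with NN between the triplets, on both strands. In both genes 2 overlapping matches span 18 bases. The Hspe1 window is shown up to its start site, and Hspd1 and Dnajb6 as the element with 20 bases on either side, 5′ to 3′ on the strand of the gene, with the element in capitals.
Hspe1, chr1:55087898-55088147, plus strand: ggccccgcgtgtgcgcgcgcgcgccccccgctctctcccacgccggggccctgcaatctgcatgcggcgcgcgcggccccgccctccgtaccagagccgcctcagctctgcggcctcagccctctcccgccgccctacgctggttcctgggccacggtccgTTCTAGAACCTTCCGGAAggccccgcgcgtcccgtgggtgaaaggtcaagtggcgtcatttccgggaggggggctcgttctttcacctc
Hspd1, chr1:55088039-55088096, minus strand: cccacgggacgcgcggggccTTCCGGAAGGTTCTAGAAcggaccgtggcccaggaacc
Dnajb6, chr5:29735832-29735884, plus strand: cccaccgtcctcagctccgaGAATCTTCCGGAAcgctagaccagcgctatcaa

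Hspe1, Hspd1, Dnajb6 and Hsph1 were the only genes with the element among 68 chaperone genes that have a window in the table (5.88%), against 0.662% of all 27025 genes there. Hspe1 and Hspd1 count as 2 genes here, although their matches are the same stretch of DNA read from opposite strands. The element begins 89 bases before the start site in Hspe1, 144 before it in Hspd1, 46 before it in Dnajb6 and 15 after a start site of Hsph1. Their log2 values were 0.40, 0.36, 0.24 and 0.15, with only Hspe1 called. With 2 instead of 3 triplets (GAA and TTC in either order with NN between) the share was 16 of 68 (23.5%) against 17.0% of all genes, and those 16 ran from -1.08 in Bag3 to 0.52 in Hspa1a. Genes with these letters thus did not share 1 direction. Windows for Hsp90ab1, Hspa8, Hsp90aa1, Hspa9, Cct4, Dnajc2, Dnajc5, Dnajc11, Hsf1, Bag4, Hspa13, Dnajc18, Dnajc30 and Dnajc12 were not used here.

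None of the 40 J protein genes, the largest class, was called, against 7.49% of all rows. Their log2 values ran from -0.57 to 0.53, the median was 0.07, and 26 lay above 0 (13 with equal sums). At an unadjusted p under 0.05 there were 5 (12.5%, against 16.2% of all rows): Dnaja1, Dnajb6, Dnajc2, Dnajc8 and Dnajc9. All 5 had a log2 above 0.

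Cytosolic J protein genes had log2 values from -0.31 to 0.37. Dnaja1, which drives Hsc70 in general folding, had means of 3629 and 2816 (log2 0.37, adjusted p = 0.210, the authors' deposited table). Dnaja2, a close relative, had 1969 and 1627 (log2 0.28, adjusted p = 0.465), and Dnajb1 (Hsp40), the stress-inducible partner of Hsp70, 709 and 679 (log2 0.06, adjusted p = 0.948), by the authors' deposited table. The summed means of the 16 cytosolic J protein genes were 1.17 times as high in GFP+ as in Tomato+, against 1.44 times for the 7 cytosolic Hsp70 genes, a sum that Hspa8 dominates.

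The nuclear J proteins Dnajc9, a histone chaperone, and Dnajc8, of the spliceosome, had log2 values of 0.33 and 0.27 (the authors' deposited table). All 6 mitochondrial J protein genes had a log2 above 0, from 0.05 to 0.53, but only 2 with equal sums. The highest was Dnajc15 (methylation-controlled J protein), a regulator at the inner membrane, with means of 236 and 163 (adjusted p = 0.410, the authors' deposited table). Dnaja3 (Tid1), the matrix partner of mortalin, had 616 and 581, and Dnajc11, of the outer membrane, 944 and 839, by the authors' deposited table. Neither was called.

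J protein genes of the ER lay on both sides of 0. Of 9 such genes 4 lay above 0 (0 with equal sums), and their summed means were 0.994 times as high in GFP+ as in Tomato+. Dnajb9 (ERdj4), which the unfolded protein response induces, had means of 128 and 184 (log2 -0.53, adjusted p = 0.653, the authors' deposited table). Dnajb11 had 554 and 517, Dnajc3 674 and 652 and Dnajc10, a reductase with a J domain, 769 and 795, by the authors' deposited table. The endosomal Dnajc13 had 999 and 970, and Dnajc18 and Dnajc27, of unassigned compartment, had log2 values of -0.28 and -0.36, by the authors' deposited table.

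No other ER gene of the set was called, and Hspa5, Hsp90b1, Pdia3, Pdia4 and Pdia6, the abundant ones, lay between 1.18-fold and 1.26-fold (the authors' deposited table). The disulfide isomerase genes Pdia3, Pdia4 and Pdia6 had means of 3996, 1238 and 2457 in GFP+ and 3379, 999 and 1952 in Tomato+ (the authors' deposited table). Their log2 values were 0.24, 0.31 and 0.33, and Pdia6 had the smallest adjusted p of all 17 ER genes, at 0.215 (the authors' deposited table). Pdia5 and Pdia2 had log2 values of 0.12 and -0.05 (the authors' deposited table). Over all 17 ER genes 0 were called, against 7.49% of all rows, and 1 had an unadjusted p under 0.05 (5.88%, against 16.2% of all rows). The median log2 was 0.05, against 0.24 for 43 cytosolic and 0.17 for 9 mitochondrial genes. With equal sums, which lower every gene by the same amount, those medians were -0.11, 0.08 and 0.01. The compartments also differ in the class and level of their genes. Of the 17 ER genes 9 are J protein genes, with means of 74 to 782 and a median log2 of -0.03. Whether log2 differs between compartments was not tested.

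**Figure D3:**
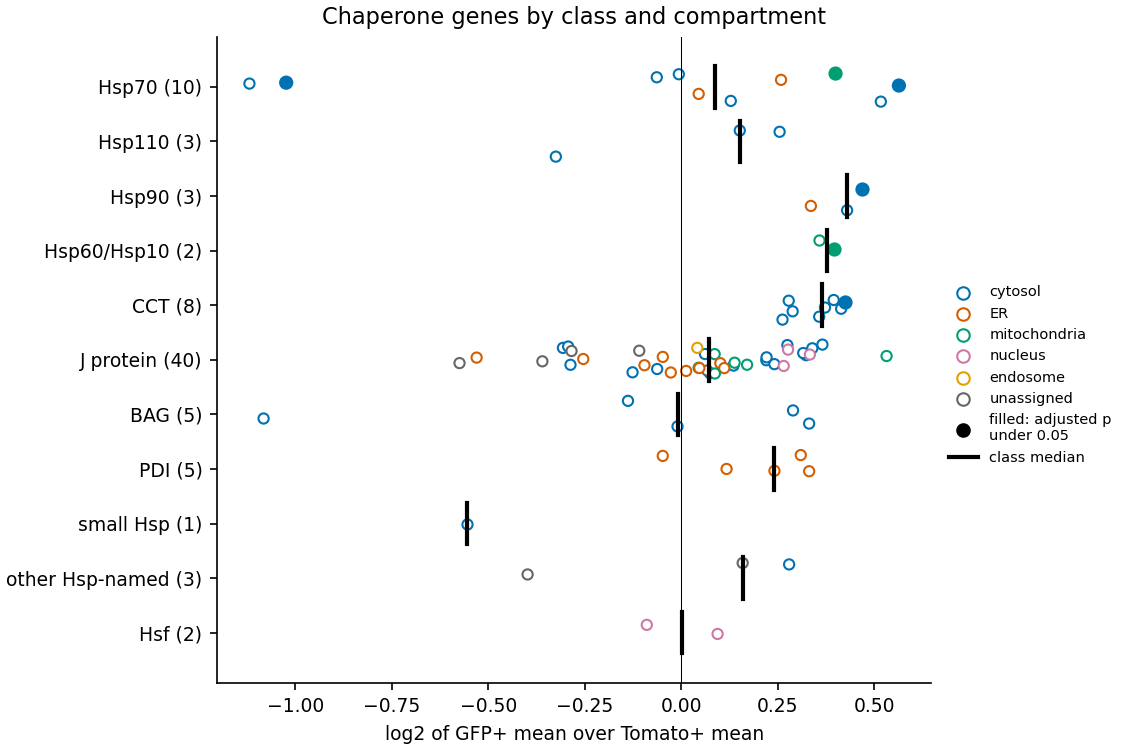
Each circle is a chaperone gene, placed by the log2 of its GFP+ over its Tomato+ mean, in rows by class with the number of genes in brackets and coloured by compartment. Filled circles have an adjusted p under 0.05 and black bars are class medians. The 8 CCT genes cluster between 0.26 and 0.42, while the 40 J protein genes spread from -0.57 to 0.53.

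The ER stress element, at which Atf6 with NF-Y acts in the unfolded protein response, was searched as CCAAT, any 9 bases and CCACG on both strands. It stood in the windows of Hspa5, Hsp90b1, Pdia6 and Dnajc3, 4 of the 68 chaperone genes (5.88%), against 0.137% of all genes. All 4 encode ER proteins. Their sequences are shown to let the element be compared between them, the Hspa5 window up to its start site and the others with 20 bases on either side of the element, which is in capitals (RefSeq, GRCm38.p6, 5′ to 3′ on the strand of the gene).
Hspa5, chr2:34771840-34772089, plus strand: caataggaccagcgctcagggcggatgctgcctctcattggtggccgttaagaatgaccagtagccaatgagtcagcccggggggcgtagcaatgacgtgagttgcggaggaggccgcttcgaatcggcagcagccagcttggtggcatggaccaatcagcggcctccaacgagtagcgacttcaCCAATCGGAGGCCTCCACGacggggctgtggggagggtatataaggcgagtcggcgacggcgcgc
Hsp90b1, chr10:86705513-86705676, minus strand: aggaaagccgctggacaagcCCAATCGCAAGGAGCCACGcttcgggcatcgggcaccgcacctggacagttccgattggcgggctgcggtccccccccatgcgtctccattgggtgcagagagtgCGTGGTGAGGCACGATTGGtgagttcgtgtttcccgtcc
Pdia6, chr12:17266471-17266529, plus strand: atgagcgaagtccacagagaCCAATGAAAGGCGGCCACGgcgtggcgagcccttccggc
Dnajc3, chr14:118937807-118937865, plus strand: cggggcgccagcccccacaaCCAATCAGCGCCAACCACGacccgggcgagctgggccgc

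Hsp90b1 holds 2 copies, in opposite orientation. The 4 genes had log2 values of 0.26, 0.34, 0.33 and 0.05, and none was called. Of 10 chaperone genes listed as targets of ER stress 0 were called and 8 lay above 0 (5 with equal sums), with a median of 0.17. A match of letters is a description and shows no binding.

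Regulators of the unfolded protein response gave no common direction either. Of 16 listed genes 15 had a row, of which 1 was called (6.67%, against 7.49% of all rows). Among these 15 genes 7 lay above 0, and the median was -0.02. The called gene, Ppp1r15a (Gadd34), which ends the translational block, had means of only 282 and 267 (log2 0.08, adjusted p = 0.0123, the authors' deposited table), and its log2 was -0.08 with equal sums. Atf6, the ER stress sensor that becomes a transcription factor, had 460 and 384 (adjusted p = 0.621, the authors' deposited table). Its value lay above 0, and it was not called.

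Of 20 further ER folding genes 1 was called lower and 0 higher (5%, against 7.49% of all rows). Their median log2 was 0.08 (-0.08 with equal sums). The called gene was Serpinh1 (Hsp47), the collagen chaperone, with 75.3 in GFP+ and 122 in Tomato+, 1.63-fold lower (adjusted p = 0.0176, the authors' deposited table). The lectin chaperone genes Calr and Canx and the disulfide isomerase gene P4hb, of highest mean in this list and named after their values were seen, lay at 1.08-fold, 1.10-fold and 1.09-fold (the authors' deposited table), and none was called. Manf, a secreted ER stress protein, had 767 and 606 (log2 0.34, adjusted p = 0.381, the authors' deposited table). Of 19 marker genes of hepatoblasts, which secrete plasma proteins, 15 were called higher and 0 lower, with a median log2 of 2.33 and summed means of 4225 in GFP+ against 2222 in Tomato+. Of 15 macrophage markers 10 were called higher, with sums of 2437 and 1337. Over all rows 4.86% were called higher. The lineage-negative, cKit+, Sca1+ and CD150+ sort is meant to remove both cell types, and their part in the ER chaperone values was not tested.

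Genes of BAG proteins, which release clients from Hsp70, were not called. At an unadjusted p under 0.05 there were 2 of 5 (40%, against 16.2% of all rows). Bag1, the general exchange factor, had means of 1191 and 947 (log2 0.33, adjusted p = 0.228, the authors' deposited table). Bag3, the stress-inducible form tied to selective autophagy, had 25.8 in GFP+ and 54.6 in Tomato+ (log2 -1.08, adjusted p = 0.167, the authors' deposited table). Bag4, an inhibitor of death receptor signals, had 333 and 335, Bag5 347 and 284 and Bag2, an inhibitor of the ligase CHIP, 281 and 310, by the authors' deposited table. The level of Bag1 per kilobase of exon was 87.6 times that of Bag3 in GFP+ and 32.9 times in Tomato+, and this difference was not tested. The gene now named Bag6 stands in the table as Bat3, outside the symbol rule, with a log2 of 0.03.

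No small heat shock protein or other Hsp-named gene was called. Hspb6 was the only small heat shock protein gene with a row, with means of 17.1 and 25.1 (the authors' deposited table). Hspbp1, an exchange factor of Hsp70, had 687 and 566 (log2 0.28, adjusted p = 0.294, the authors' deposited table). Hspb11 and Hspbap1 had log2 values of -0.40 and 0.16 by the authors' deposited table. Hspb6 was thus among the scarcest genes of the set.

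The regulators of the heat shock response were nearly level. Hsf1, its main transcription factor, had means of 538 and 504 (log2 0.09, adjusted p = 0.958), and Hsf2, which pairs with it in development, 117 and 125 (log2 -0.09, adjusted p = 0.988), by the authors' deposited table. Hsf1 lay at -0.06 with equal sums.

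A list of chaperone genes that Hsf1 can induce held both constitutive and strictly inducible forms. Of its 13 genes 12 had a row, and 3 were called higher (Hspa8, Hsp90ab1 and Hspe1) and 0 lower. The share called higher was 25%, against 4.86% of all rows. Hspa8 and Hsp90ab1 lie in the range from 5000 upward, where 69.3% of all rows were called higher. Hspe1 lies between 1000 and 2500, where 6.58% were. The median log2 of the list was 0.36 (0.21 with equal sums). Hspa8 and Hsp90ab1 are the constitutive forms, and Hspe1 is also made without stress. The 4 with the lowest means, Hspa1a, Hspa1b, Bag3 and Hspa4l, had log2 values of 0.52, -0.06, -1.08 and -0.32 and were not called.

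Immediate early genes, which handling and stimulation induce within minutes, were in part lower in GFP+. Of 18 listed genes 15 had a row, and of these 4 were called lower and 0 higher, with a median log2 of -0.95 and summed means of 2530 in GFP+ against 4035 in Tomato+. Over all rows 2.64% were called lower. Egr1 and Jun had log2 values of -3.96 and -2.34 (the authors' deposited table). Among the 12 stress-inducible chaperone genes the lowest log2 was that of Bag3, at -1.08. The part of handling in these values was not tested.

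Co-chaperone genes outside the symbol rule lay mostly above 0, without a call. Of 19 genes of Hsp90 and Hsp70 partners 0 were called, against 7.49% of all rows. At an unadjusted p under 0.05 there were 4 (21.1%, against 16.2% of all rows). Among the 19 genes 15 lay above 0 (11 with equal sums), and the median was 0.19. Ptges3 (p23), which holds Hsp90 in its closed state, had means of 3137 and 2339 (log2 0.42, adjusted p = 0.124, the authors' deposited table). Fkbp4, an immunophilin of receptor complexes, had 4131 and 3317 (log2 0.32, adjusted p = 0.165, the authors' deposited table).

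Of 12 further mitochondrial folding and protease genes 0 were called, against 7.49% of all rows. With an unadjusted p under 0.05 there were also 0, against 16.2% of all rows. Their median log2 was 0.13 (-0.03 with equal sums). The protease gene Clpp had 460.0 and 377 and Yme1l1 1252 and 1104, by the authors' deposited table. Hspa9 and Hspe1 were called and these further genes of the same compartment were not, and that contrast was not tested. The means of the 12 genes over all libraries, from 241 to 1505, lay below those of Hspa9 (4722) and Hspe1 (1507).

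**Figure D4:**
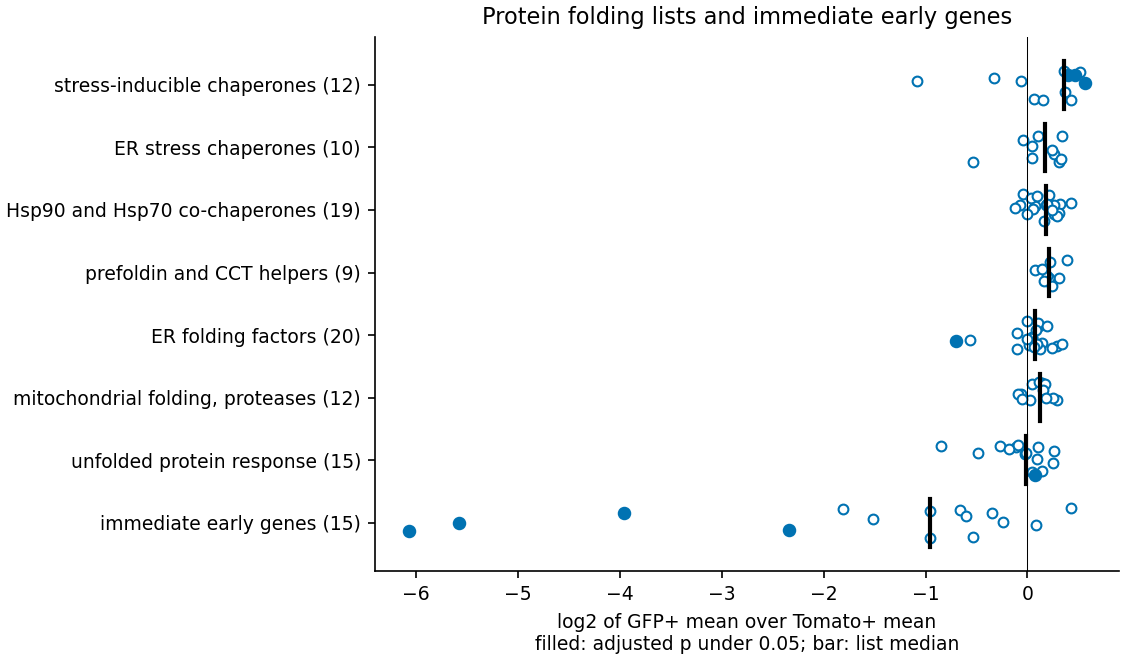
Circles are genes of 8 lists, placed by the log2 of the GFP+ over the Tomato+ mean, filled where the adjusted p is under 0.05, with the list median as a bar and the number of genes in brackets. The 7 protein folding lists have medians from -0.02 to 0.36, and the immediate early genes a median of -0.95.

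The sort markers and markers of other blood cells give the setting of these values. Slamf1, which encodes the CD150 of the sort, had 27.9 in GFP+ against 119 in Tomato+ (adjusted p = 4.95e-08, the authors' deposited table). Flt3, whose Cre driver defines the fractions, had 3753 in GFP+ against 1617, a 2.32-fold excess (adjusted p = 2.03e-19, the authors' deposited table). Kit had 4087 and 4950 (the authors' deposited table) and was not called. Of 10 listed stem and progenitor genes 2 were called higher and 5 lower. Erythroid markers were called higher in 15 of 19 cases and lower in 1, and B lymphoid markers higher in 8 of 13. Over all rows 4.86% were called higher and 2.64% lower. The globin gene Hbb-b1 had a log2 of 1.71 (the authors' deposited table), above that of any chaperone gene. Of 24 erythroid and 15 B lymphoid genes listed, these 19 and 13 had a row. The part of these cells in the chaperone values was not tested.

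Reads shared between genes limit single values. Exons of 30 of the 82 genes overlap exons of a gene on the opposite strand in the GENCODE annotation, and use of strand in the counting was not given in the sources used here. Among called genes, 6.22% of Cct8 exon bases overlap Usp16 and 7.60% of Hspe1 exon bases overlap Hspd1. Abundant chaperone genes also have processed pseudogenes, whose handling is not known.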

How the data were processed

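RNA of 8 libraries, 4 per fraction, was compared in 1 table. Per the submitters' processing notes, reads were handled with TopHat, TopHat2 2.0.11, Bowtie2 2.2.1, bedtools and DESeq, with mm9; the role of each was not given in the sources used here. Deposited by the authors, per the file headers, were means of a normalized count signal over all libraries and per fraction, their ratio (fold change), its log2 and a p-value, raw and adjusted. The deposited ratio is Tomato+ over GFP+, and its sign was turned here. The repeated header line was dropped.

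With no values per library, the planned edgeR test was replaced by the authors' p-values, whose adjustment equals Benjamini-Hochberg over all 14268 rows within 5.28e-08. Counts and medians were computed with Python 3.11.15 and pandas 2.3.3 and tested on simulated data. Exon lengths came from GENCODE M21, which like the RefSeq promoter windows is on another build than mm9, and the rows of the table were given no positions. List counts cover listed genes with a row. Protein sequences were not used here. Older symbols were matched through RefSeq synonyms.

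Members and lists were chosen with earlier results of these data known. The rule for named genes covered all called genes, the 2 of highest mean per class and compartment, both Hsf genes, both stress target lists, the 5 largest log2 values with a mean of at least 50 and, per other list, 2 genes by p-value (markers by mean). Other named genes, the ranges of the mean and the endothelial list were chosen after their values were seen.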

Additional observations from a re-analysis of the deposited data

How the results depend on the processing

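No paired analysis was possible because only means of each fraction were at hand. DESeq2 size factors, a DESeq2 test and leaving out single libraries were therefore not run, and depth per library is unknown. Against 6 called genes (5 higher, 1 lower), an adjusted p under 0.01 left 3 (2 higher, 1 lower), a minimum log2 of 1 left 1 (0 higher) and a Bonferroni adjustment 0 (0 higher, 0 lower), each by a stricter criterion. At an unadjusted p under 0.05 there were 23. Without genes of a mean of at least 5000, an alternative chosen after seeing the data, 4 were left. The other thresholds, filters and row choices kept the count within 1.5 times. With equal sums the median log2 was -0.025 for all 82 genes, -0.070 for Hsp70, -0.086 for J proteins, -0.0049 for Hsp110, -0.15 for Hsf1 and Hsf2 and -0.11 for the ER, all above 0 before. It was 0.21 for CCT, 0.22 for Hsp60 and Hsp10 and 0.27 for Hsp90. Centring gave 0.35 for Hsp60 and Hsp10. The mean in place of the median gave -0.030 for Hsp70, where Hspa12b and Hspa2 lie at -1.02 and -1.12. The 6 called genes kept their sign under both rescalings.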
